A study of Homo sapiens with 2 samples.

Results

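Intermediate filaments are rope-like cytoskeletal polymers whose protein composition differs by tissue, so their transcripts serve as labels of cell lineage. The genes described here are 4 keratins of simple epithelia (KRT7, KRT8, KRT18 and KRT19), vimentin (VIM), nestin (NES) and 4 neuronal filament genes (NEFL, NEFM, INA and PRPH). All probe sets annotated to exactly 1 of these genes were taken, which gave 19 probe sets for 10 genes out of 54675 probe sets and 19775 named genes. The genes were selected on their signals on both arrays, with earlier results of these arrays known, so their values are given as a description and no test was run on them.

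The series compared SK-N-MC cells stably transfected with the human melanotransferrin (MTf) cDNA in the pCMV-Script expression vector (hyperexpression clone 4, the MTf clone) with SK-N-MC cells stably transfected with pCMV-Script alone (clone 1, the vector control). Melanotransferrin is a membrane-anchored relative of the iron carrier transferrin, and the vector drives its insert from a viral promoter that is active in most cell types. SK-N-MC is a human line that the submitters call a neuroepithelioma line and that is now placed in the Ewing tumour family, a group of tumours with mixed mesenchymal and neural features. Total RNA of each line was hybridised to 1 Affymetrix U133 Plus 2.0 array, so each value below is a single measurement of 1 clone with no replicate check, and differences between clones cannot be told apart from differences due to melanotransferrin.

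Keratins assemble only as pairs of a type I chain (KRT18, KRT19) with a type II chain (KRT7, KRT8), and an unpaired chain is usually degraded. Vimentin forms filaments on its own in mesenchymal cells, and nestin, typical of neural progenitors, needs vimentin or a similar partner. Neurofilament light and medium chains (NEFL, NEFM), alpha-internexin (INA) and peripherin (PRPH) build the filaments of neurons, peripherin mainly in the peripheral nervous system.

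VIM, KRT18 and INA were well above background on both arrays and lay within 2-fold between them, KRT7 and KRT8 were each just over 2-fold lower in the MTf clone, and PRPH was lower as well. KRT19, NES, NEFL and NEFM were not above the background level pooled over both arrays, NES by a small margin in the MTf clone. Background was read from 191 probe sets of genes not expected in these cells, which encode olfactory receptors, hair keratin-associated proteins and bitter taste receptors. The floor was put at the 90th percentile of their signals, 208. A gene was represented by its brightest probe set, and where 1 of its signals was under the floor the floor took that signal's place, which makes the ratio a bound. By this rule 5 of the 10 genes were measured on both arrays, 1 in the control alone and 4 on neither. Of all 19775 genes, 10795 were measured on both arrays, 1426 in the control alone and 442 in the MTf clone alone, and the rest on neither. The share of the 10 genes at background was thus near that of genes at large. Of the 6 measured genes, 0 had a signal 2-fold or more higher in the MTf clone, as 1.21% of 12663 measured genes had, and 2 had one 2-fold or more lower, as 1.90% of them had. In RNA from a whole culture, fewer cells that express a gene and less RNA per cell cannot be told apart.

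**Figure D1:**
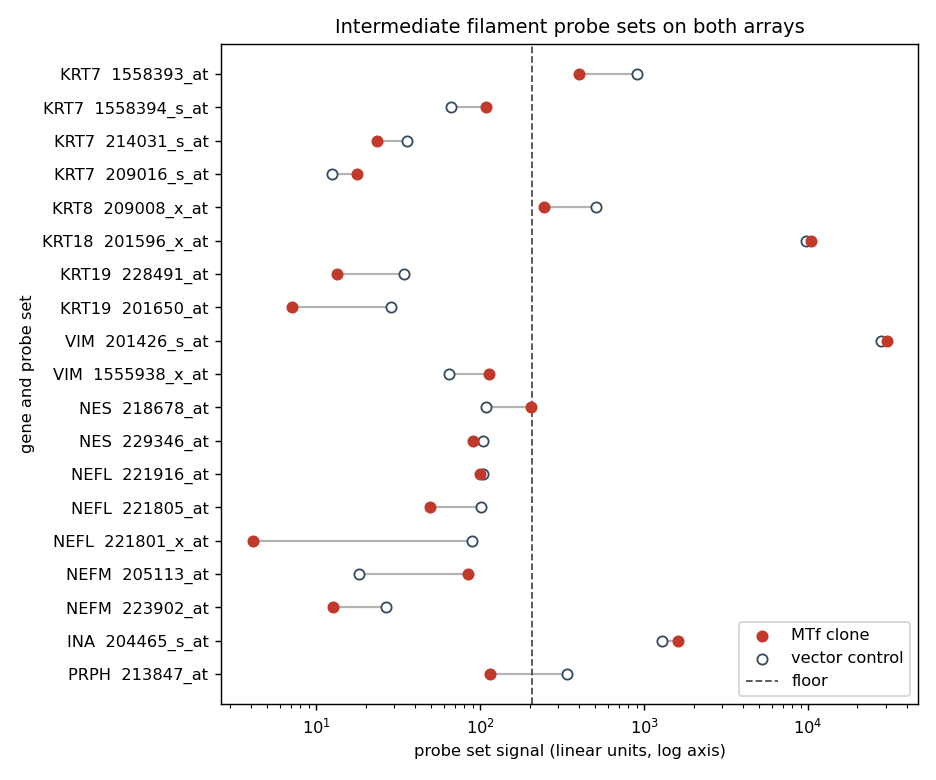
Signal of each of the 19 probe sets (rows) on the MTf clone array (filled) and the vector control array (open), on a log axis of linear signal units, with the floor of 208 as a dashed line. VIM, KRT18 and INA each have 1 probe set with nearly coinciding points far right of the floor, and 13 probe sets lie left of it on both arrays.

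The type II keratins had low signals that were lower in the MTf clone. KRT7, a type II chain of ductal and glandular epithelia, read 398.8 in the MTf clone and 904.9 in the vector control on its brightest probe set (1558393_at), a 2.27-fold lower signal (log2 ratio -1.18). Its other 3 probe sets stayed under the floor, at 108.5 in the MTf clone and 66.4 in the control (1558394_s_at), 23.6 and 35.6 in the same order (214031_s_at), and 17.8 and 12.5 (209016_s_at). The first of these is annotated to the same cDNA clone as the bright probe set and was higher in the MTf clone, so the KRT7 value rests on 1 probe set of 4 with no second one above the floor. Which transcripts the bright probe set binds was not tested, so KRT7 expression itself is uncertain here.

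KRT8, the type II partner of KRT18 and among the first keratins made in the embryo, read 245.6 in the MTf clone and 509.9 in the vector control on its single probe set (209008_x_at). The signal was thus 2.08-fold lower (log2 ratio -1.05), and the MTf clone value stood just above the floor. The suffix x in the ID marks probes that can also bind related sequences, and the RefSeq table of assembly GRCh38.p14 lists 52 pseudogenes named after KRT8. Their part in the signal was not tested.

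Of the type I keratins, one was bright and one at background. KRT18 read 10363 in the MTf clone and 9759.9 in the vector control on its single probe set (201596_x_at), a 1.06-fold higher signal (log2 ratio 0.09). KRT19, the smallest keratin and a marker of ductal epithelium, did not reach the floor on either array, at 13.3 in the MTf clone and 34.3 in the control (228491_at) and at 7.1 and 28.6 in the same order (201650_at). KRT18 was therefore the 1 keratin of these 4 with a signal far above background. Its probe set also carries the x suffix, and 68 pseudogenes named after KRT18 are listed in the RefSeq table. KRT8 and KRT18 are neighbouring genes on chromosome 12 with 0 protein-coding genes between them and overlapping spans in that table. Yet their probe sets gave log2 ratios of -1.05 and 0.09. Over the 3 measured keratins the median log2 ratio was -1.05, beside -0.02 over all measured genes. With 3 genes this median is the KRT8 value itself, from 1 dim probe set, and the bright KRT18 did not share it.

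Vimentin, the filament protein of mesenchymal cells, read 30162.9 in the MTf clone and 27792.5 in the vector control on its bright probe set (201426_s_at), a log2 ratio of 0.12. Its other probe set (1555938_x_at) was under the floor, at 113.6 in the MTf clone and 64.8 in the control. The 2 VIM probe sets thus differed widely in brightness, and only the bright one gives a ratio.

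Nestin lay below the floor on both probe sets, at 205.1 in the MTf clone and 109.2 in the vector control (218678_at) and at 90.8 and 104.6 in the same order (229346_at). The higher of these values was just under the floor of 208, and it lay above 169.4, the same percentile of background on the MTf clone array alone. With the floor of 208 NES had no ratio. In the 5 alternative settings that gave one, its log2 ratio was 0.91 with a floor of 104, 0.54 with an offset of 100 in place of the floor, 0.31 with arrays scaled on the transcripts spiked in at hybridisation, 0.13 with the arrays' difference in median background added to the MTf clone signals and 0.10 after a loess on mean signal, each on the first probe set.

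The neuronal filament genes were mostly at background. INA, alpha-internexin, an early neuronal filament protein, was the exception, with 1615.7 in the MTf clone and 1282.9 in the vector control on its single probe set (204465_s_at), a 1.26-fold higher signal (log2 ratio 0.33). PRPH, peripherin, read 115.5 in the MTf clone, below the floor, and 339.2 in the control (213847_at), so its signal was at least 1.63-fold lower (log2 bound -0.71). Among all measured genes, 3.49% passed the floor in the MTf clone alone and 11.3% in the control alone, as PRPH did.

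NEFL, the neurofilament light chain that forms the filament core, was below the floor on 3 probe sets. These read 100.1 in the MTf clone and 104.2 in the control (221916_at), 49.1 and 101.5 in the same order (221805_at), and 4.1 and 89.1 (221801_x_at). NEFM, the medium chain with a long side arm, read 84.8 in the MTf clone and 18.2 in the control on one probe set (205113_at) and 12.7 and 26.7 on the other (223902_at). All 5 neurofilament probe sets were therefore below the floor, and no direction is read from them. Over INA and PRPH, the measured neuronal filament genes, the median log2 ratio was -0.19, with PRPH entered at its bound.

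**Figure D2:**
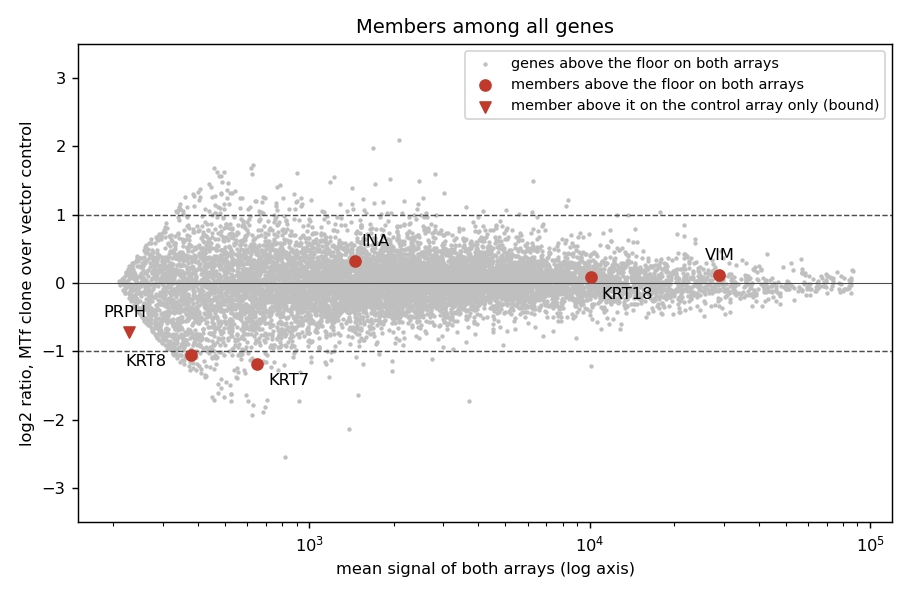
Log2 ratio of the MTf clone over the vector control (vertical axis) against the mean signal of both arrays (log axis) for the 10795 genes above the floor on both arrays (grey), with the measured filament genes in red and PRPH as a bound. KRT18, VIM and INA lie inside the cloud of genes of like signal, and KRT7, KRT8 and PRPH lie at its dim end, with KRT7 and KRT8 below the dashed line at 2-fold.

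The lower filament genes were all dim, and dim genes were more often 2-fold apart. Among the 5237 measured genes with a mean signal under 1000, a limit chosen after the values were seen, 4.24% were at least 2-fold lower in the MTf clone and 2.14% at least 2-fold higher. Background also differed between the arrays: the 191 background probe sets had a median signal of 44.0 on the MTf clone array and 67.4 on the control array, and 68.1% of them read lower in the MTf clone. When this difference in medians, 23.4 units, was added to every MTf clone signal, a step chosen after seeing the data, KRT7 stayed 2-fold lower (log2 ratio -1.10) and KRT8 did not (-0.92). The only repeat available is the agreement of probe sets of 1 gene. Over 2108 genes with several measured probe sets, the dimmest under a mean signal of 500, log2 ratios within a gene had a pooled SD of 0.40, which covers disagreement between probe sets and not the variation between cultures or clones.

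The direction of the bright genes was reversed under 1 of the scalings tried. The deposited signals have the same trimmed mean on both arrays, and the added control transcripts moved against each other. The 18 hybridisation spike probe sets had a median ratio of 0.706 (MTf clone over control) and the 24 poly-A spike probe sets one of 1.53. Scaled on the hybridisation spikes, which moved the median of all genes by 0.49 on the log2 scale, VIM had a log2 ratio of 0.62, KRT18 of 0.59 and INA of 0.83. Scaled on the poly-A spikes, which moved that median by -0.56, these became -0.49, -0.52 and -0.28. KRT7, KRT8 and PRPH were lower in the MTf clone under both scalings, with KRT7 at -0.68 and -1.79, KRT8 at -0.55 and -1.56 and PRPH at bounds of -0.53 and -0.97, so the hybridisation spike scaling took KRT7 and KRT8 inside 2-fold. Melanotransferrin itself read 4449.4 in the MTf clone and 18.4 in the control on 1 of its 4 probe sets, at least 21.4-fold higher, and at most 209.3 in the MTf clone and 245.8 in the control on the others.

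**Figure D3:**
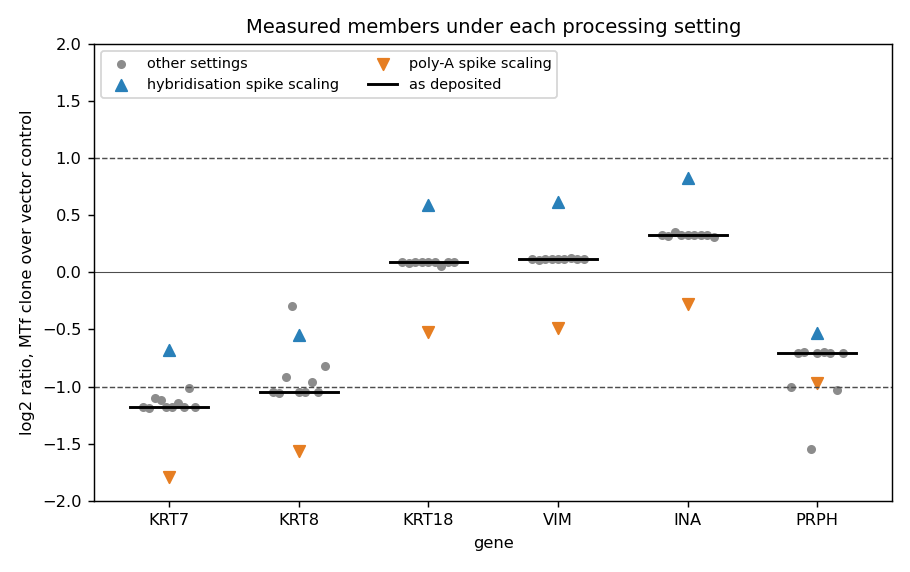
Log2 ratio of the MTf clone over the vector control for the 6 measured genes (horizontal axis) as deposited (black bar), under scaling on the hybridisation spikes or the poly-A spikes (triangles) and under the other settings (grey). KRT7, KRT8 and PRPH are below 0 in every setting that gave them a value, and KRT18, VIM and INA cross 0 with the poly-A spike scaling.

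RefSeq start-site sequences (GRCh38.p14) were used for PRPH, INA, KRT8 and VIM, and those of KRT7 and KRT18 were not analysed here. The 250 bases before each start are shown to compare 2 genes that read lower in the MTf clone (PRPH, KRT8) with 2 genes within 2-fold (INA, VIM). Capitals mark TATAAA, the core promoter TATA box, and GGGCGG, the GC box, each searched on both strands (as TTTATA and CCGCCC on the other), and no matches overlapped. The windows lie at chr12:49294897-49295146 on the plus strand for PRPH, chr10:103276888-103277137 on the plus strand for INA, chr12:52926470-52926719 on the minus strand for KRT8 and chr10:17227991-17228240 on the plus strand for VIM.
PRPH: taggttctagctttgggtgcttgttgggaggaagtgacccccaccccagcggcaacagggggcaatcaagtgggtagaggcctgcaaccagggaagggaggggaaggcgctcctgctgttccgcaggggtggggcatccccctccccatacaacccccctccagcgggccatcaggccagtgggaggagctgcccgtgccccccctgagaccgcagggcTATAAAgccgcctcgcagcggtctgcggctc
INA: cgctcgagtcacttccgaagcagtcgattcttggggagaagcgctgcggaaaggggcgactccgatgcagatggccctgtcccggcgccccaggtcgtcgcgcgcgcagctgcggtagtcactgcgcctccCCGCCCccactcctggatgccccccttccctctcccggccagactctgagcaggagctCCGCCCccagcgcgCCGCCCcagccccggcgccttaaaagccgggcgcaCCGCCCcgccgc
KRT8: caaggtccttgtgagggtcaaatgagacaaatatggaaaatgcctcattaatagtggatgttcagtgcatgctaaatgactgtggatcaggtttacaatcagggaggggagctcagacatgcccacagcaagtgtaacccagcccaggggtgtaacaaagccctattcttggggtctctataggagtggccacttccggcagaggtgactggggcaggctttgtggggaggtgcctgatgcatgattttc
VIM: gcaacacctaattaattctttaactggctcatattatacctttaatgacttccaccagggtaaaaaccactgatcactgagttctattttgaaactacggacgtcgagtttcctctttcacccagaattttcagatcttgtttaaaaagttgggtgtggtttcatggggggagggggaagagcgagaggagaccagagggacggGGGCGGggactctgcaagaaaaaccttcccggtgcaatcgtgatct

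PRPH had 1 TATAAA, starting 31 bases before the start site, and 0 GGGCGG. INA had 0 TATAAA and 4 matches to the GC box, all in the reverse orientation and starting 119, 61, 47 and 12 bases before the start. The start used is the one in the table, and whether it is the main start of each gene, for KRT8 and VIM in particular, was not tested. KRT8 had neither motif in this window, and VIM had 1 GGGCGG, starting 46 bases before the start. Of 35116 such windows of the same length, 10.7% held TATAAA and 42.6% held GGGCGG. The G and C content was 66.8% for PRPH, 72.8% for INA, 50.4% for KRT8 and 46.0% for VIM. PRPH and KRT8 shared neither motif in these windows, and matches are descriptions of the letters only.

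The chosen epithelial markers were at background beside the KRT18 signal, while some genes of a wider epithelial list were not. All 7 analysed epithelial markers, CDH1 (E-cadherin) and EPCAM among them, were below the floor on both arrays, with summed signals of 386 in the MTf clone and 916 in the vector control. No direction is read from them, since 68.1% of the background probe sets also read lower in the MTf clone. Their part in the KRT7 and KRT8 values was not tested. Of 26 analysed genes in the wider list of epithelial junction and identity genes, 3 were above the floor on both arrays. OCLN (occludin), named after its values were seen, read 5785.4 in the MTf clone and 4491.0 in the control. TFAP2A read 3228.5 and 2422.8 in the same order, and OVOL1, also named afterwards, 252.5 and 314.6. Of the fibroblast markers, 7 of 8 were above the floor on both arrays, beside the bright VIM probe set, with summed signals of 56109 in the MTf clone and 66225 in the control. The 7 analysed Ewing tumour markers were all above it too, at 127048 in the MTf clone and 113602 in the control, among them CD99 at 32238.8 and 31464.8 in the same order. Both sums rest on a few bright genes, and each list had genes on both sides of 0. Of the fibroblast markers, COL1A1 read 10279.1 in the MTf clone and 15581.8 in the control, and FAP 1772.9 and 1486.7. Of the Ewing tumour markers, STEAP1 read 33977.9 and 24514.1 in the same order, and CCND1 15300.2 and 18275.7. No direction is read from either sum. Of the 7 analysed sympathetic neuron markers, 4 were below the floor on both arrays and 0 were above it on both, beside NEFL and NEFM at background, with summed signals of 471 in the MTf clone and 916 in the control. The other 3, CHGA, ELAVL4 and SYP, passed the floor in the vector control alone, as PRPH did, with log2 bounds of -0.41, -0.47 and -0.12. SYP read 226.2 there, just above the floor. Of all measured genes, 11.3% passed the floor in the control alone. Among the 4 below it, HAND2 read higher in the MTf clone, at 182.2 against 20.4 in the control, and TH, DBH and STMN2 read lower. No direction is read from this list.

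Other filament genes and partners were rarely 2-fold apart, and so were genes at large. Across 11 lists of related genes, 251 genes were analysed and 167 measured, of which 0 were at least 2-fold higher and 2 at least 2-fold lower in the MTf clone, beside 1.21% and 1.90% of all measured genes. List medians ran from -0.14 to 0.08 on the log2 scale, beside -0.02 over all measured genes, and with the spike scalings all 11 medians took the sign of the shift of all genes, above 0 with the hybridisation spikes and below 0 with the poly-A spikes.

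Of 40 other keratins with a probe set, 33 were below the floor on both arrays and 0 of the 7 measured were 2-fold apart (median log2 ratio -0.05). The largest values were those of KRT25, a hair root sheath keratin, which read 1959.2 in the MTf clone and 1106.3 in the control (log2 ratio 0.82), and KRT38, a hair keratin, at 153.0 and 347.4 in the same order (bound -0.74). Named after their values were seen, KRT10, a type I keratin of the epidermis, read 17149.2 in the MTf clone and 18836.2 in the control (log2 ratio -0.14), and KRT12, a corneal keratin, read 6228 and 6376.9 in the same order (log2 ratio -0.03). KRT25, KRT38 and KRT12 have 1 probe set each, and the KRT10 probe set, 1 of 3 above the floor on both arrays, carries the x suffix. Which transcripts these probe sets bind was not tested, so expression of KRT25 and KRT12 is uncertain here.

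Of the 9 other intermediate filament genes, 5 were measured and 0 were 2-fold apart (median -0.06). LMNA, which encodes the A-type lamins of the nuclear envelope, read 3511.2 in the MTf clone and 3362.9 in the control (log2 ratio 0.06), and the B-type lamins LMNB1 and LMNB2 had log2 ratios of -0.06 and -0.17. BFSP1, a filament protein of the eye lens, read 552.7 in the MTf clone and 345.6 in the control (log2 ratio 0.68). SYNM, synemin, which joins vimentin and desmin filaments, read 177.6 and 252.9 in the same order (bound -0.28). GFAP, DES, NEFH and BFSP2 were below the floor on both arrays.

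Among 14 measured anchors and linkers of filaments 0 were 2-fold apart (median -0.14). DSP, desmoplakin, which ties keratins and vimentin to desmosomes, read 3337.8 in the MTf clone and 2605.7 in the control (log2 ratio 0.36). PKP2, a plakophilin of the desmosomal plaque, read 1260.8 and 1865.7 in the same order (log2 ratio -0.57). These plaque genes were therefore above the floor on both arrays, on opposite sides of 0.

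Of 18 measured enzymes and adaptors that modify filaments, 1 was at least 2-fold lower in the MTf clone and 0 were 2-fold higher (median -0.10). PADI2, a peptidylarginine deiminase that converts arginines of vimentin and other proteins to citrulline, read 61.4 in the MTf clone and 503.3 in the control, at least 2.42-fold lower. Its other 2 probe sets were below the floor on both arrays, so this bound too rests on 1 probe set. AURKB, a mitotic kinase that phosphorylates vimentin, read 3709.6 in the MTf clone and 3120.2 in the control (log2 ratio 0.25).

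Of 20 measured factors linked to simple keratin transcription, 1 was at least 2-fold lower and 0 were 2-fold higher (median -0.02). RARG, a receptor for retinoic acid, which induces simple keratins in several cell types, read 946.8 in the MTf clone and 2150.8 in the control (2.27-fold lower), and its second measured probe set read 477.0 and 1040.4 in the same order (2.18-fold lower). NFIA, a nuclear factor I protein, had the largest higher value of that list, a log2 ratio of 0.71.

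In the lists of cell identity and of actin and tubulin 0 genes were counted as 2-fold apart. Several of their values are bounds, which leave a difference of 2-fold or more possible. The 9 measured epithelial junction and identity genes had a median of -0.12 and ran from MUC1, a mucin (bound -0.73), to TFAP2A, an AP-2 transcription factor (log2 ratio 0.41). The 19 mesenchymal genes had a median of -0.01 and ran from PDGFRB, a growth factor receptor (-0.63), to COL1A2, a collagen chain (0.65). The 12 neural progenitor genes had a median of 0.08, from POU3F3, a POU factor (bound -0.55), to the receptor NOTCH1 (0.38). The 24 neuronal cytoskeleton genes had a median of 0.07, from GAP43, a growth cone protein (-0.88), to DCX, doublecortin, which read 404.5 in the MTf clone and 85.7 in the control (bound 0.96). The 25 actin and tubulin genes had a median of 0.00, from TAGLN, transgelin (-0.83), to TPM1, a tropomyosin (0.47).

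The 14 measured regulators of neuronal genes had a median of -0.05, with 0 genes 2-fold apart. REST, the repressor of neuronal genes outside the nervous system, read 2172.9 in the MTf clone and 1807.3 in the control (log2 ratio 0.27), and its corepressor RCOR1 read 9357 and 8394.2 in the same order (0.16). The extremes were POU4F1, a sensory neuron factor, at 0.56, and MYT1, a neuronal zinc finger protein, at a bound of -0.58.

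**Figure D4:**
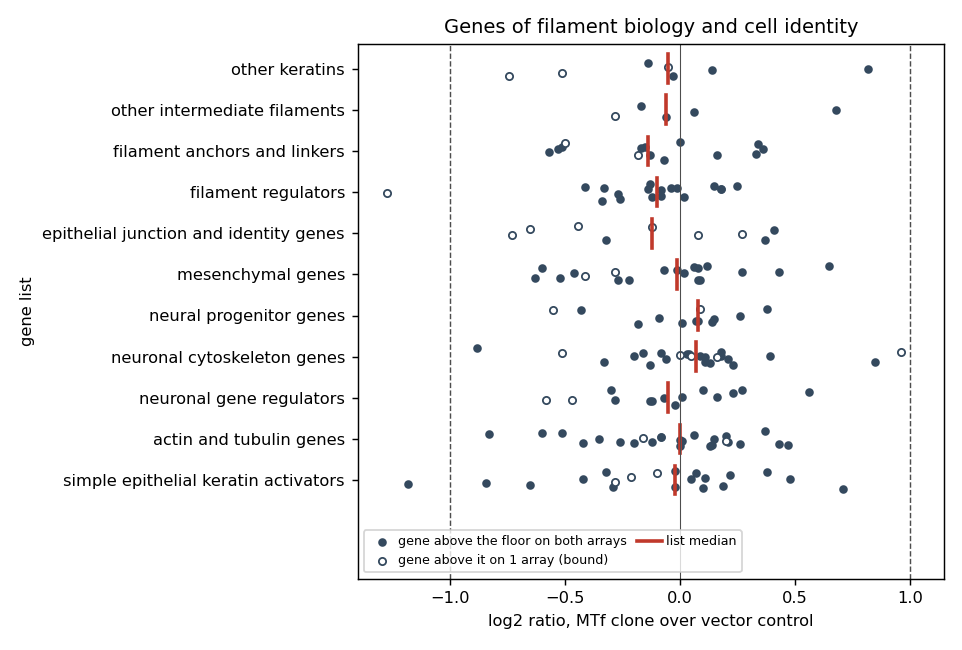
Log2 ratio of the MTf clone over the vector control (horizontal axis) for each measured gene of 11 lists (rows), filled where the gene was above the floor on both arrays and open where the value is a bound, with each list's median as a red bar and dashed lines at 2-fold. The medians lie between -0.14 and 0.08, and 2 genes, PADI2 and RARG, lie beyond the left dashed line.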

How the data were processed

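Total RNA of 2 stably transfected SK-N-MC lines was measured on 1 expression array each. The authors deposited linear intensity values, 1 per probe set and array; the software was GCOS 1.3, per the submitters' processing notes. How probes were summarised and to which target arrays were scaled is not given in the sources used, and no detection calls were used. As deposited, the mean intensity after dropping the lowest and highest 2% of probe sets was 1000.12 on both arrays, so a change shared by most transcripts cannot be seen. Of 54675 probe sets, 47.3% on the MTf clone array and 50.8% on the control array were above the floor; the number of arrays limits the precision.

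Probe sets were named from the platform annotation of GEO: 41097 had 1 gene symbol, 1801 several, and 11777 are unnamed here. Those with 1 symbol were used, and 41043 of them were matched by gene ID to RefSeq (GRCh38.p14) for current symbols. No coordinates are tied to probe sets, since no build is stated for them. Ratios are MTf clone over vector control on the log2 scale. With 1 array per group there is no test and no p-value, and genes were counted by a fixed size of 2-fold. The members and lists were chosen with earlier results of these data known. The genes named are all members, list genes at least 2-fold apart, the extreme genes of each list and any measured gene of the lists of other intermediate filaments and of neuronal gene regulators; others are named as chosen after their values were seen, as are the examples among the cell type markers. With 2 arrays no likeness of pattern between genes was computed. Alternatives changed the floor, the probe set rule, the scaling and the 2-fold limit. Python 3.11.15 with numpy 2.4.6, pandas 2.3.3, statsmodels 0.14.6 and matplotlib 3.10.9 was used, and the scoring was tested on simulated data.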

Additional observations from a re-analysis of the deposited data

How the results depend on the processing

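As deposited, 0 members were at least 2-fold higher and 2 at least 2-fold lower in the MTf clone; the first count was 0 in each of the settings run. The second was 0 with scaling on the hybridisation spikes. It was 1 with the floor 2 times as high, after loess, without probe sets of shared sequence and with the background difference added, the last chosen after seeing the data. It was 3 with a floor of 104, with a floor for each array and at the 1.5-fold limit. With an offset of 100 it was 2, KRT7 and PRPH (-1.03), with KRT8 at -0.82. KRT7 ranged from -1.79 to -0.68 and was 2-fold lower in 11 of 12 settings, KRT8 from -1.56 to -0.29 and in 6 of 11, and PRPH from -1.55 to -0.53 and in 3 of 11. Several settings could not move KRT7 and KRT8 and are no separate check. The floor of 104, the floor without keratin-associated genes, the floor for each array and the median of probe sets left them at -1.18 and -1.05. Leaving out shared probe sets also left KRT7 at -1.18. The keratin median (-1.05) was -0.55 with hybridisation spike scaling, -1.56 with poly-A spike scaling, -0.29 with the floor 2 times as high and -0.53 with an offset of 100 in place of the floor, which lets KRT19 in. The neuronal filament median (-0.19) was 0.15 with hybridisation spike scaling, 0.14 with the offset, 0.0 with a floor of 104, -0.62 with poly-A spike scaling, 0.33 with the floor 2 times as high, which leaves INA alone, and -0.71 without shared probe sets, which leaves PRPH alone. The mean of VIM and NES had no value as deposited, since NES was below the floor. Without shared probe sets KRT8, KRT18, VIM and INA had no value. List genes at least 2-fold higher (0) numbered 7 with hybridisation spike scaling, 6 with the offset, 3 with a floor of 104, and 1 each after loess and with the background difference added. Those at least 2-fold lower (2) numbered 20 with poly-A spike scaling, 15 with a floor of 104, 11 with the offset, and 1 each with hybridisation spike scaling, with the floor 2 times as high and without shared probe sets. Of all measured genes, 918 were then 2-fold higher and 57 lower with hybridisation spike scaling, and 17 higher and 1518 lower with poly-A spike scaling, beside 153 and 240 as deposited. The floor of 104 gave 350 higher and 1065 lower, the floor 2 times as high 71 and 47, the offset 270 and 950, and a floor for each array 147 and 401. Of the remaining values, 84 moved by more than the probe set spread or the count limit and 402 did not. The 402 are no measure of stability, since they include values that a setting could hardly change. The floor without keratin-associated genes, for example, was also 208 and gave the same 153 higher and 240 lower genes. Beyond the changes of construction named, the causes were not tested. No array could be left out with 1 per group.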

Other observations

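Markers of glia and muscle, other cells in which intermediate filaments serve as labels, were mostly below the floor. Of 6 analysed glial markers 4 were below it on both arrays, SOX10 and AQP4 among them. S100B, a calcium-binding protein of glia and other cells, read 756.4 in the MTf clone and 630.2 in the vector control (log2 ratio 0.26). MBP, a myelin protein, read 190.1 in the MTf clone and 421.6 in the control, a bound of -1.02. Of 8 muscle markers 5 were below the floor on both arrays, including MYOD1 and MYOG. TNNT1, a slow skeletal troponin, read 479.8 in the MTf clone and 647.6 in the control (log2 ratio -0.43), and ACTC1, cardiac actin, 315.7 and 119.7 in the same order (bound 0.60). ACTA1, another actin gene of the list, went the other way, at 35.5 in the MTf clone and 279.1 in the control (bound -0.42).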
